A study of Mus musculus with 8 samples.

Results

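The 33 genes described here make sterols and fatty acids or control that synthesis. They were chosen by name: 26 of them form a sterol branch (20 enzymes of cholesterol synthesis, the sterol carrier Stard4 and 5 regulators) and 7 form a fatty acid branch. All 33 were matched by gene symbol among the 55573 gene IDs of the count table. 32 of them, all 26 of the sterol branch and 6 of the fatty acid branch, held enough reads to be among the 12500 genes tested. Fads2, the delta-6 desaturase, was the exception.

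The RNA came from naive CD8+ T cells, which are resting cytotoxic lymphocytes that have not met antigen, sorted from spleen and lymph nodes of male C57BL/6 mice. The 8 libraries comprised 5 labelled Furin KO, of which 1 came from mice of 7 weeks and 4 from mice of 8 weeks, and 3 labelled WT, of which 1 was of 7 weeks and 2 of 8 weeks. Furin encodes a protease of the secretory pathway that cuts precursor proteins. The labels name neither the allele nor a Cre driver, and say nothing of pooling. They also do not say that each library is a separate mouse, so the p-values reflect sample-to-sample spread, some of which may be technical.

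Sterol regulatory element-binding proteins (SREBPs), encoded by Srebf1 and Srebf2, are made as precursors in the endoplasmic reticulum membrane. When sterols are scarce, SCAP carries them to the Golgi, where the site-1 and site-2 proteases release the active transcription factor, and INSIG proteins hold SCAP back when sterols are plentiful. SREBP-2 mainly drives cholesterol synthesis and SREBP-1 mainly fatty acid synthesis. Resting T cells run both pathways at a low rate and raise them when they start to grow.

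SREBPs act at promoters together with NF-Y, which binds the CCAAT box, and Sp1, which binds GC boxes. The promoters of 4 members, from 250 bases before to 50 bases after the start site, are shown because they let a reader see these letters in members of different roles: an enzyme before mevalonate (Hmgcs1), an enzyme after it (Mvd), the main sterol regulator (Srebf2) and a fatty acid enzyme (Fasn). The sequences are from RefSeq (GRCm38.p6), read 5′ to 3′ on the strand of the gene, and capitals mark TCACNCCAC, a form of the sterol regulatory element, and CCAAT, each on either strand.
Hmgcs1 (chr13:119690101-119690400, plus strand): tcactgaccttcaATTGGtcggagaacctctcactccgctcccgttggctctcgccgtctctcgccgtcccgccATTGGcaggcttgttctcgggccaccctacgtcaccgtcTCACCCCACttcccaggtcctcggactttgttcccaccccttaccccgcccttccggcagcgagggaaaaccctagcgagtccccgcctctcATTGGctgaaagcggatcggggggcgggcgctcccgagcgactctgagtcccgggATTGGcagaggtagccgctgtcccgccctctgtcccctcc
Mvd (chr8:122443373-122443672, minus strand): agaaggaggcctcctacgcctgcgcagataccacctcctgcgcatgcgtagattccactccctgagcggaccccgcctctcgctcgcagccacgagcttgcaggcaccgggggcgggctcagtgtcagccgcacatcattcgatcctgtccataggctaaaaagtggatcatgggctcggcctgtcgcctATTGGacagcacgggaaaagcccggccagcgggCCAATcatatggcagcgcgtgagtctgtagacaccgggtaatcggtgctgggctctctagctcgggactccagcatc
Srebf2 (chr15:82147019-82147318, plus strand): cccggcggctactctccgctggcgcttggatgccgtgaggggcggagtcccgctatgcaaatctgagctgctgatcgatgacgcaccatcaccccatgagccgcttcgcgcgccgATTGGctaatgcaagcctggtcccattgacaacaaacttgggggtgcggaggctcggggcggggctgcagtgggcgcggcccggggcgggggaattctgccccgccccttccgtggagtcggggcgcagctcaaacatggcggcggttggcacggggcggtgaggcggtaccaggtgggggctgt
Fasn (chr11:120824498-120824797, minus strand): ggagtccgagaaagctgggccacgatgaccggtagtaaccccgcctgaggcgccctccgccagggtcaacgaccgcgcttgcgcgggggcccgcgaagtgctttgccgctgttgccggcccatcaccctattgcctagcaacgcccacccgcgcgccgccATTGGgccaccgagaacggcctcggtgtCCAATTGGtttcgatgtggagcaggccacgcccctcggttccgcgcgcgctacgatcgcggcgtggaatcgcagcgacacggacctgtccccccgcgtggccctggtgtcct

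CCAAT occurs 4 times in the Hmgcs1 promoter, 2 times in that of Mvd, 1 time in that of Srebf2 and 3 times in that of Fasn. In Fasn, 2 of the 3 matches are the opposite strands of 1 stretch, CCAATTGG, and share bases. The promoter table held 27 of the 33 members, 22 of the sterol branch and 5 of the fatty acid branch. Sqle, Fdft1, Fdps, Stard4, Scd2 and Fads1 are named only. The 5 fatty acid genes include Fads2, which was not tested. They also include Acaca, whose promoter sequence starts at 84195188 of chromosome 11, inside the annotated gene, which starts at 84129672. At least 1 promoter with CCAAT was present in 20 of the 22 sterol genes (90.9%) and in 2 of the 5 fatty acid genes (40.0%), against 43.0% of the 8938 tested genes in the table. Counted by promoter, since a gene can have several, it was in 21 of 30 of the sterol branch (70.0%) and in 37.8% of those of tested genes. GGGCGG, a GC box, was present in 20 of the 22 sterol genes (90.9%) and 2 of the 5 fatty acid genes (40.0%), against 68.9% of tested genes, and by promoter in 80.0% of the sterol branch against 62.4% for tested genes. CACGTG, an E-box, was present in 5 of the 22 sterol genes (22.7%) and 0 of the 5 fatty acid genes, against 12.1% of tested genes, and by promoter in 6 of 30 of the sterol branch against 10.3% for tested genes. Hmgcs1 alone of the 27 held TCACNCCAC, centred 133 bases before its start site, where 1.36% of tested genes held it. Among the 109 matches in the members' promoters, 0 pairs of different motifs shared bases. The promoters of Scap overlap, so the same E-box and the same GC box are counted in each, by promoter and among these matches. All motifs were searched on both strands, and a match is a description of these letters and not a bound site.

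The members spanned a wide range of levels. Per kilobase of exon, in CPM (the count divided by the scaled library size and expressed at a common depth), Lbr and Acly led at 57.3 and 55.0 CPM per kilobase over all 8 libraries. LBR is a nuclear envelope protein with sterol C14-reductase activity, and ACLY makes the cytosolic acetyl-CoA that feeds both pathways. Srebf1 and Srebf2 followed at 37.6 and 35.0 CPM per kilobase, then Fasn, the fatty acid synthase, at 23.1, and Scap at 20.7 CPM per kilobase. Most enzymes of the sterol branch stood lower. Mvd, the mevalonate diphosphate decarboxylase, had 17.5, Hmgcs1 10.9 and Sqle, the squalene epoxidase, 2.13 CPM per kilobase. Of the 31 pairs of neighbours in the order of all tested members, 29 had ranges over the 8 libraries that overlapped, Lbr and Acly among them. The other 2 did not: Acly lay at or above 51.3 and Srebf1 at or below 44.4 CPM per kilobase, and Srebf2 lay at or above 29.1 and Fasn at or below 25.6 CPM per kilobase.

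**Figure D1:**
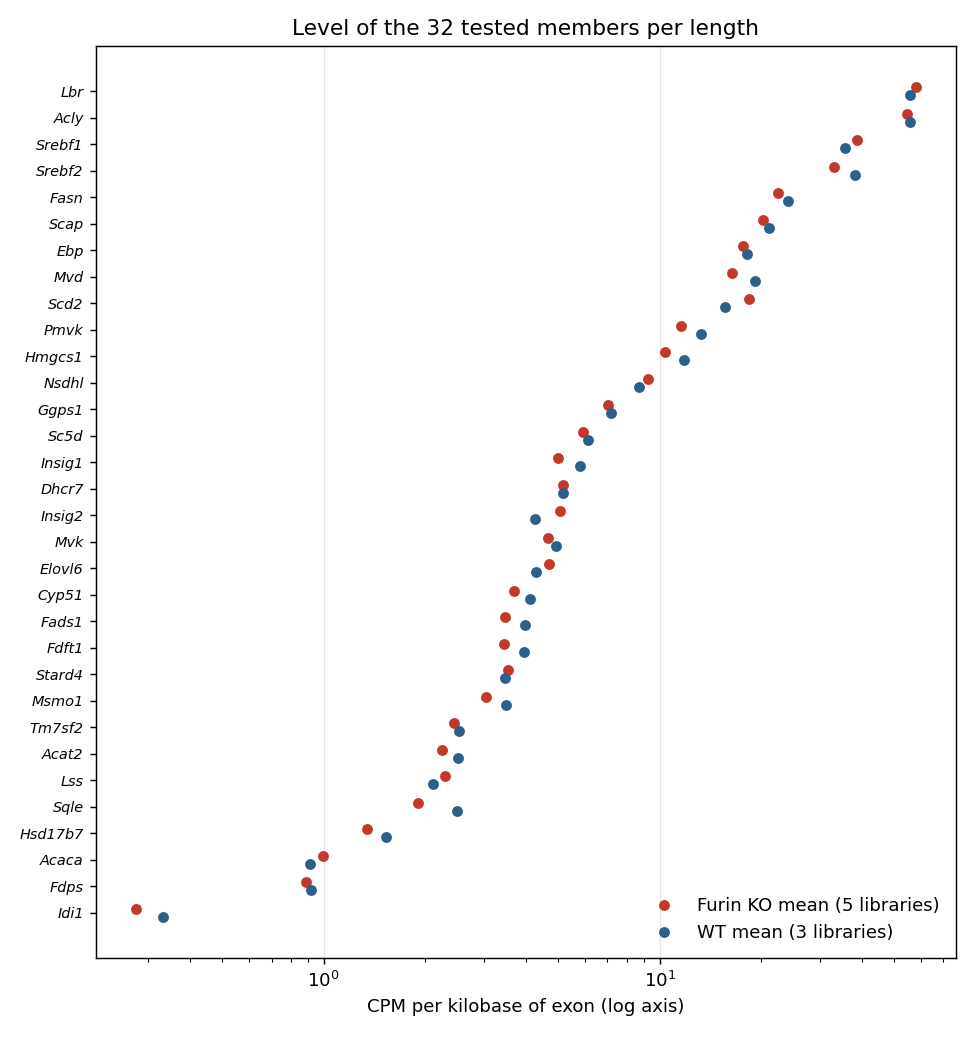
Mean level of the 32 tested members in CPM per kilobase of exon (log axis). The upper marker of each gene is the Furin KO mean (5 libraries) and the lower marker the WT mean (3 libraries). Levels are read along the horizontal axis. Lbr and Acly lead, Idi1 is lowest at 0.297 CPM per kilobase over all libraries, and Srebf2 stands at 33.1 CPM per kilobase in Furin KO and 38.2 in WT.

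The lowest levels need care. Fdps, the farnesyl diphosphate synthase, had 0.897 CPM per kilobase and Idi1, the isopentenyl diphosphate isomerase, 0.297. Of all windows of 75 bases in the annotated transcripts, 23.5% of those of Fdps and 23.6% of those of Idi1 also occurred in transcripts of other genes. The share was 33.9% for Acat2 (with Acat3 and Tcp1), 26.8% for Acaca and 21.8% for Fdft1. How the authors counted reads that match several genes is not given, so the levels of these 5 genes are uncertain. Fads2 was listed at 0 in all 8 libraries, although none of its windows was shared. A count of 0 allows up to 3 counts, which is 0.143 to 0.264 CPM across the libraries (counting error only). Exons of 13 members overlap those of another annotated gene, 10 of them on the opposite strand, and the strand setting of the counting is not given.

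Furin itself, the targeted gene, had 63.5, 86.4, 62.2, 58.0 and 76.6 CPM in Furin KO replicates 1 to 5, against 57.0, 66.8 and 66.9 CPM in WT replicates 1 to 3. The groups overlapped, with a log2 fold change of 0.12 (95% interval -0.15 to 0.40, exact two-sided permutation p = 0.5). A count over the whole gene cannot tell which exons were read, so every direction given here rests on the genotype labels alone. Cd8a, a chain of the CD8 co-receptor, averaged 1752 ± 111 CPM in Furin KO and 1584 ± 180 CPM in WT (SD, n = 5 and 3), and the B cell gene Ms4a1, the myeloid gene Csf1r and the NK cell gene Ncr1 were at 0 counts in every library. Other listed markers were not at 0. Klrd1, listed for NK cells, averaged 175 ± 19.1 CPM in Furin KO and 186 ± 3.15 CPM in WT (SD, n = 5 and 3). Cd79a of B cells, Itgam of myeloid cells and Foxp3 of regulatory T cells reached 25, 37 and 47 counts in their highest library. Of the 5 listed naive T cell genes, 3 were above 0 between genotypes and 2 below. Il7r, 1 of the 2, averaged 559 ± 66.9 CPM in Furin KO and 686 ± 95.2 CPM in WT, with overlapping groups. Its log2 fold change was -0.29 (unadjusted edgeR p = 0.0145, edgeR adjusted p = 0.9998, exact two-sided permutation p = 0.0714). Total counts ran from 11308220 to 21040431 in Furin KO and from 14463450 to 19159021 in WT. In whole cell populations, fewer cells of a type and less RNA per cell cannot be told apart.

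None of the 32 tested members passed the test between genotypes. With edgeR (quasi-likelihood, Benjamini-Hochberg adjusted p under 0.05 over all 12500 genes) 0 of 32 passed, with a lowest adjusted p of 0.9998, where 0.032% of all genes passed. DESeq2, limma-voom and an edgeR fit with a term for 3 library sets, described with the branch medians, also called 0 members, where they called 0.0699% of the 20022 genes with a DESeq2 p, 0.04% and 0.096% of the genes they tested. At an unadjusted p under 0.05, 1 of 32 was called, where 3.21% of all genes were. It was Scd2, higher in Furin KO (1.61% of all genes were called higher), and 0 were called lower (1.6% of all genes). At that level DESeq2 called 1 member (2.73% of all genes), limma-voom 2 (3.42%) and the edgeR fit with library sets 3 (5.65%). The libraries of the genotypes did not overlap at 0 of 32 members, against 2.9% of all genes (1.59% lower and 1.31% higher). A log2 fold change under -0.2 was found at 7 of 32 members, against 14.6% of all genes. That count depends on the cut and the tool. Srebf2, Fads1 and Hsd17b7 were at -0.2045, -0.2037 and -0.2005 in edgeR, just under it. With DESeq2 they were at -0.1988, -0.1979 and -0.1948, above it. Log2 fold changes of Furin KO over WT ran from -0.39 (Sqle) to 0.24 (Insig2), and 31 of the 32 intervals lay within a 2-fold change in either direction. For 24 members the 95% interval also excluded a change of 1.5-fold.

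**Figure D2:**
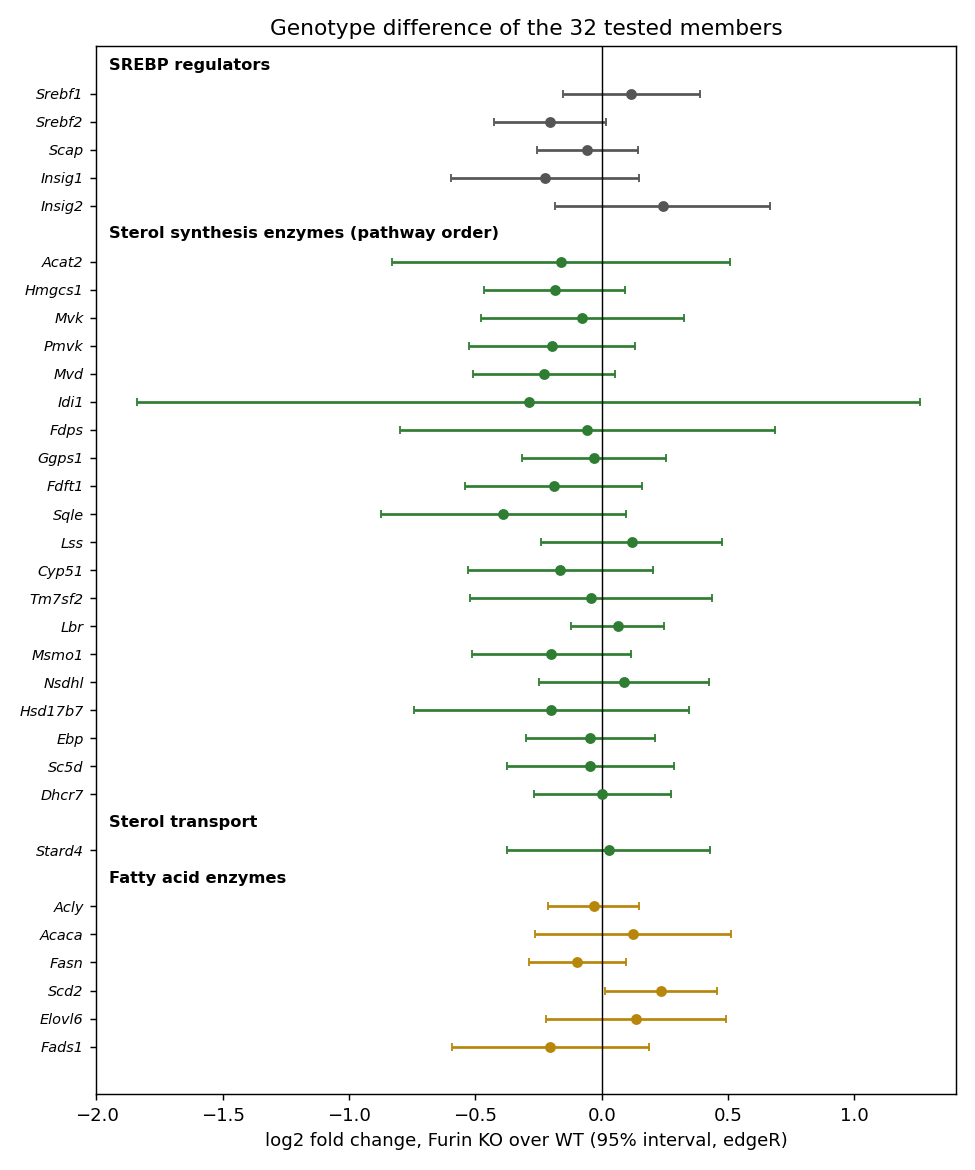
Log2 fold change of Furin KO over WT with 95% intervals (edgeR) for the 32 tested members, ordered by role and, for enzymes, by pathway step. The interval of every member except Scd2 (0.01 to 0.46) includes 0, and Idi1 has the widest, from -1.84 to 1.26.

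The 5 regulators lay on both sides of 0. Srebf2 had 215, 247, 241, 209 and 279 CPM in Furin KO replicates 1 to 5, against 245, 287 and 291 CPM in WT replicates 1 to 3. 4 of the 5 Furin KO libraries were under 250 CPM and so was WT replicate 1, so the groups overlapped. Its log2 fold change was -0.20 (SE 0.11, edgeR adjusted p = 0.9998, exact two-sided permutation p = 0.107), and the smallest p that 5 against 3 libraries can give is 0.0179. Srebf1 had 223, 213, 163, 249.985 and 241 CPM in Furin KO, against 170.0, 203 and 231 CPM in WT. Here the lowest and the highest library were both Furin KO, and the log2 fold change was 0.12 (SE 0.13), and 0.01 without WT replicate 1. Scap, the escort of both SREBPs, had 143, 152, 136, 156 and 171 CPM in Furin KO, against 161, 153 and 159 CPM in WT. The WT libraries lay inside the Furin KO range, and the means were 152 ± 13.3 CPM in Furin KO and 158 ± 4.41 CPM in WT (SD, n = 5 and 3).

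Of the paired retention proteins, Insig1, itself a target of SREBP, had 13.3, 15.3, 17.3, 12.01 and 19.2 CPM in Furin KO, against 19.5, 18.7 and 15.7 CPM in WT. Its log2 fold change was -0.23 (SE 0.18, exact two-sided permutation p = 0.214), with overlapping groups. Insig2, known to respond less to SREBP, had 13.9, 21.7, 22.9, 13.4 and 15.6 CPM in Furin KO, against 16.2, 15.9 and 12.4 CPM in WT. Furin KO replicates 2 and 3 stood above all other libraries, and the log2 fold change was 0.24 (SE 0.20), and 0.13 without Furin KO replicate 3 or without WT replicate 3.

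In the early part of the sterol route, 8 of the listed enzymes lead to isoprenoid diphosphates, and HMG-CoA reductase is not among the members. All 8 lay below 0, from -0.29 (Idi1) to -0.03 (Ggps1), and their median log2 fold change was -0.17. Without WT replicate 2 these were 5 of 8 and -0.01, and with the library set as a factor 8 of 8 and -0.15. Their summed level was 154 ± 11.6 CPM in Furin KO and 171 ± 9.17 CPM in WT (SD, n = 5 and 3), and 0 of the 8 passed. Hmgcs1, the cytosolic HMG-CoA synthase, had 45.2, 51.1, 54.4, 41.4 and 46.0 CPM in Furin KO, against 48.5, 66.3 and 47.7 CPM in WT. WT replicate 2 was the highest of all 8, while the other WT libraries lay among the Furin KO values. The log2 fold change was -0.19 (SE 0.13), and -0.01 without WT replicate 2. Mvd had 26.2, 31.7, 31.4, 29.3 and 34.4 CPM in Furin KO, against 39.5, 31.1 and 36.8 CPM in WT, with a log2 fold change of -0.23 (SE 0.13, exact two-sided permutation p = 0.125). For Mvd it was WT replicate 2 that lay among the Furin KO libraries. Pmvk, the phosphomevalonate kinase, had 16.2, 22.1, 18.6, 21.8 and 20.7 CPM in Furin KO, against 20.9, 20.6 and 27.0 CPM in WT, where WT replicate 3 was the highest of all. Its log2 fold change was -0.20 (SE 0.16), and -0.05 without WT replicate 3. Acat2, Mvk and Fdps had log2 fold changes of -0.16, -0.08 and -0.06.

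From squalene onwards, 8 of the 12 listed enzymes lay below 0 and the median log2 fold change was -0.05. These became 5 of 12 and 0.03 without WT replicate 2, and 9 of 12 and -0.07 with the library set as a factor. Sqle, a rate-limiting enzyme of the pathway, had 7.52, 9.87, 12.9, 8.96 and 13.8 CPM in Furin KO, against 11.1, 18.3 and 12.1 CPM in WT. Furin KO replicates 3 and 5 lay above WT replicates 1 and 3, and the log2 fold change was -0.39 (SE 0.23, edgeR adjusted p = 0.9998, exact two-sided permutation p = 0.232). Without WT replicate 2 it was -0.13, and with the library set as a factor -0.45. Msmo1, which removes the methyl groups at C4, had 16.4, 18.9, 17.6, 19.0 and 21.6 CPM in Furin KO, against 18.7, 23.5 and 22.1 CPM in WT. WT replicate 1 lay among the Furin KO libraries, and the log2 fold change was -0.20 (SE 0.15). Fdft1, the squalene synthase, and Cyp51, the lanosterol demethylase, had -0.19 and -0.16. Lss, Nsdhl, Lbr and Dhcr7, 4 further enzymes, had values of 0.12, 0.09, 0.06 and 0.0024. The remaining enzymes of these steps, Tm7sf2, Hsd17b7, Ebp and Sc5d, lay between -0.20 and -0.04. Stard4, which carries cholesterol between membranes, had a log2 fold change of 0.03.

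**Figure D3:**
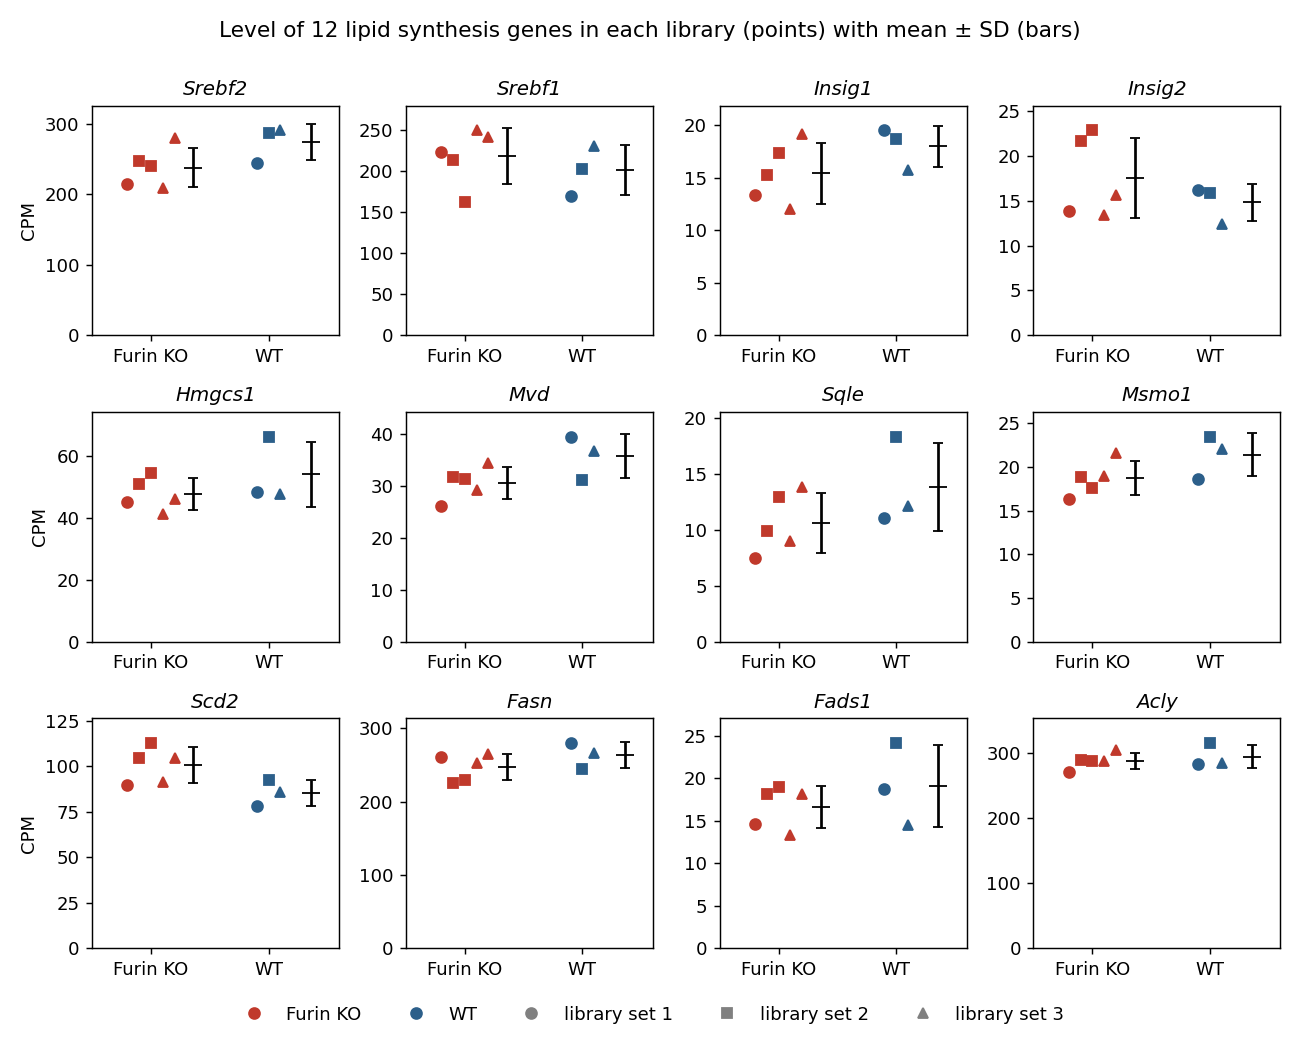
CPM of 12 members in every library, with Furin KO (red) left of WT (blue), marker shapes for the 3 library sets, and the mean ± SD of each group (n = 5 and 3). All panels start at 0 and the groups overlap in each of them, among them Scd2, where 3 Furin KO libraries stand above all WT libraries.

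The fatty acid branch showed no shared direction. Scd2, a stearoyl-CoA desaturase that makes monounsaturated fatty acids, had 89.7, 105, 113, 91.3 and 104 CPM in Furin KO, against 78.0, 92.3 and 86.0 CPM in WT. Furin KO replicates 1 and 4 lay within the WT range. The log2 fold change was 0.23 (SE 0.11, unadjusted p = 0.0407, edgeR adjusted p = 0.9998, exact two-sided permutation p = 0.0714). Fasn had 261, 226, 230, 252 and 265 CPM in Furin KO, against 280, 245 and 267 CPM in WT, a log2 fold change of -0.10 (SE 0.09). Fads1, the delta-5 desaturase, had 14.6, 18.2, 19.0, 13.3 and 18.1 CPM in Furin KO, against 18.7, 24.2 and 14.4 CPM in WT, and WT alone spanned nearly the whole range. Acly was among the steadiest members, at 288 ± 11.9 CPM in Furin KO and 294 ± 18.0 CPM in WT (SD, n = 5 and 3). Elovl6, which elongates palmitate, and Acaca, the acetyl-CoA carboxylase, had log2 fold changes of 0.14 and 0.12. Both depended on WT replicate 1, where Elovl6 was at 37.1 CPM against 21.6 and 24.0 CPM in WT replicates 2 and 3. Without that library the values were 0.41 for Elovl6 and 0.06 for Acaca. In the 8-week libraries alone they were 0.42 and -0.01.

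Set against all genes, 19 of the 26 tested sterol genes had fold changes below 0, where 50.2% of all genes did, with a median log2 fold change of -0.07. The 6 fatty acid genes gave 3 below 0 and a median of 0.05, and the median over all 12500 genes was -0.00068. Summed CPM of the sterol branch was 1320 ± 60.7 in Furin KO and 1360 ± 76.1 in WT (SD, n = 5 and 3). Of this, the 20 enzymes held 660 ± 28.2 in Furin KO and 675 ± 43.9 in WT. Lbr alone averaged 277 CPM in Furin KO and 265 CPM in WT. The 5 regulators held 641 ± 55.2 in Furin KO and 666 ± 49.5 in WT. The fatty acid branch summed to 699 ± 23.4 in Furin KO and 706 ± 11.6 in WT (SD, n = 5 and 3). In 25 of the 26 sterol genes the genotype means differed by less than the range of the 3 WT libraries alone. The same held for 5 of the 6 fatty acid genes. This share was not counted over all genes, so these 2 counts cannot be set against it.

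**Figure D4:**
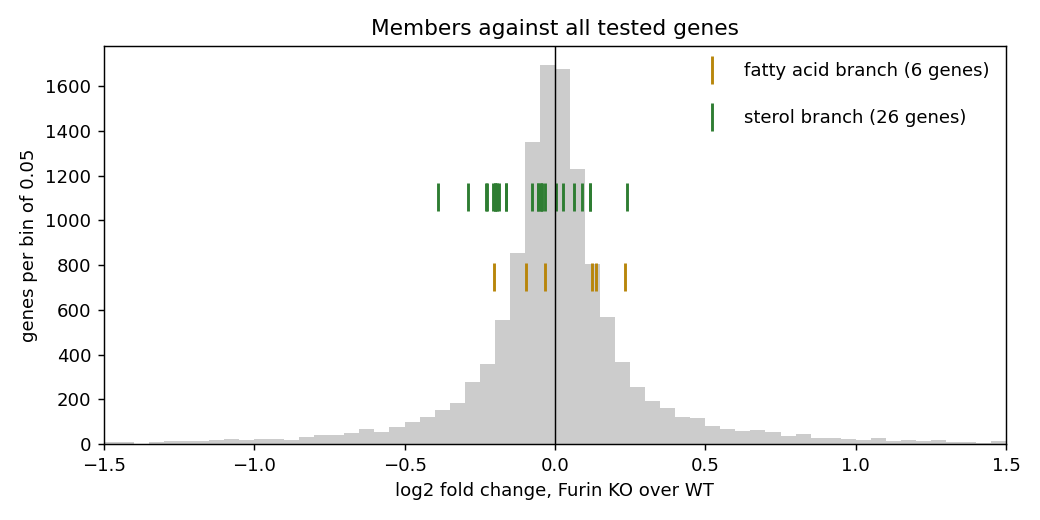
Log2 fold changes of Furin KO over WT for all 12500 tested genes (grey, genes per bin of 0.05), with the 26 sterol genes (green ticks) and the 6 fatty acid genes (ochre ticks). The ticks lie within the bulk of all genes, 19 of 26 and 3 of 6 of them below 0, and values beyond the axis ends are not drawn.

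The lower median of the sterol branch moved with the libraries and the model used. WT replicate 2 had the highest level at 8 of the 26 genes and the lowest at 0, and 21 of the 26 stood above their own mean there. Without it, in the fit with no term for library sets, 13 of 26 sterol genes were below 0 and the median was 0.00097. Furin KO replicates 1 and 4 were the lowest library at 7 and 6 of the 26 genes. Grouping the libraries by how far apart their counts were gave 3 sets, and since every set held both genotypes, the sterol median was compared within each. Furin KO replicate 1 minus WT replicate 1 gave -0.17 (16 of 26 below 0, n = 1 and 1), Furin KO replicates 2 and 3 minus WT replicate 2 gave -0.08 (17 of 26, n = 2 and 1), and Furin KO replicates 4 and 5 minus WT replicate 3 gave -0.11 (19 of 26, n = 2 and 1), on log2(CPM + 1). Of all genes, 48.9%, 51.6% and 51.1% were below 0 in these sets. Each set rests on 1 WT library, so these values carry no test. The first of these sets was also the only one of 7-week mice. A fit over all 8 libraries with a term for these sets, added once the data had been seen, gave a sterol median of -0.10 with 20 of 26 below 0, and 0 members passed.

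The set that held WT replicate 2 stood apart in immediate early genes, which cells induce within minutes of stimulation or handling. The sets were made from counts that included these genes, so this difference is not an independent trait of the set. Summed CPM of the 7 listed was 1267 and 730 in Furin KO replicates 2 and 3 and 957 in WT replicate 2, and between 3213 and 4422 in the other 5 libraries. All 7 lay below 0 between the genotypes, with a median log2 fold change of -0.19, and 0 passed by edgeR. The sterol branch median, as a deviation from each gene's mean, was 0.02 and 0.08 in those Furin KO libraries and 0.13 in that WT library. It ran from -0.14 to 0.07 in the others. The part of cell handling in the sterol levels was not tested.

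**Figure D5:**
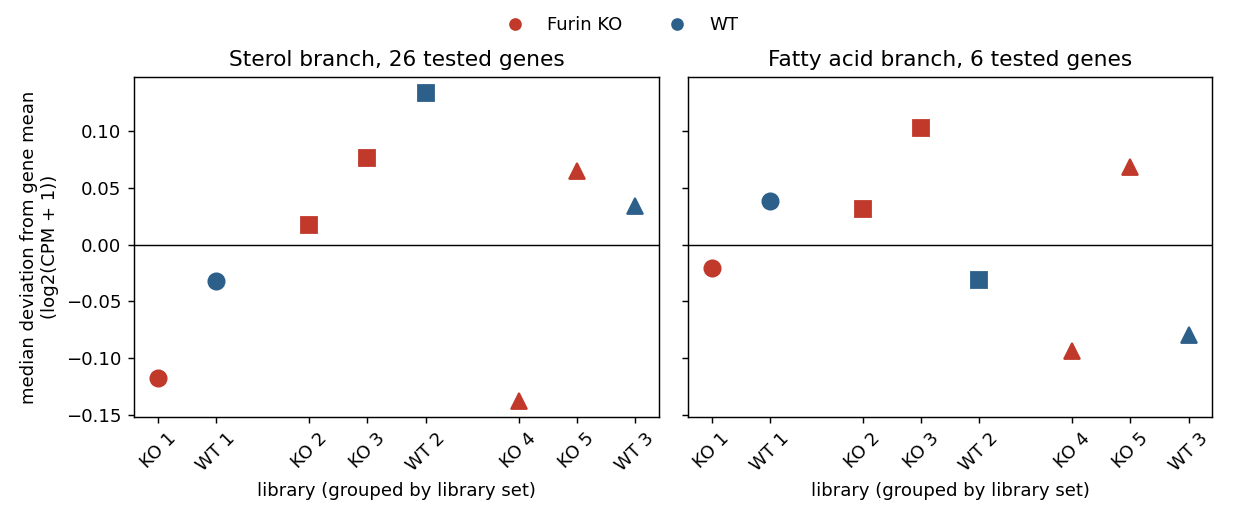
Median deviation of the sterol branch (left) and the fatty acid branch (right) from each gene's mean, on log2(CPM + 1), per library and grouped by library set, with Furin KO (red) left of WT (blue). WT replicate 2 is highest in the sterol branch at 0.13 and lies below 0 in the fatty acid branch, at -0.03.

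Neighbouring pathways gave no called gene either. Of 86 tested genes in 8 further lists, 0 passed by edgeR, DESeq2 or limma-voom, and 2, 2 and 1 of them had an unadjusted p under 0.05, where 3.21%, 2.73% and 3.42% of all genes did. With a term for library sets, edgeR called 6 of the 86 at that level, where it called 5.65% of all genes, and 0 passed. Sec24c, a coat protein of the vesicles that carry SCAP, had a log2 fold change of 0.08, and Ufd1, which helps deliver ubiquitinated proteins for degradation, 0.07. Mbtps1, the site-1 protease that cuts SREBPs and a relative of FURIN, averaged 283 ± 23.6 CPM in Furin KO and 291 ± 10.6 CPM in WT, and Mbtps2, the site-2 protease, which is given for its role, 14.4 ± 1.549 CPM in Furin KO and 14.1 ± 0.598 CPM in WT (SD, n = 5 and 3). The 11 genes of SREBP processing and sterol-regulated degradation had log2 fold changes from -0.04 to 0.08. Of 13 genes of sterol uptake, transport and esterification, 9 were below 0, among them Osbp, a sterol and lipid exchange protein, at -0.20 (exact two-sided permutation p = 0.0536). Gramd1b, which moves cholesterol from the plasma membrane, had 0.19. Soat2, which esterifies cholesterol, had 0.731 ± 0.559 CPM in Furin KO and 0.206 ± 0.357 CPM in WT (SD, n = 5 and 3), too few reads for its fold to be read.

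The liver X receptors sense oxidised sterols and turn on cholesterol export. Of 8 genes in that list 6 were above 0, with Abcg1, a cholesterol exporter, at 0.11 and Nr1h3, the receptor LXR-alpha, at 0.79, with 2.36 ± 1.67 CPM in Furin KO and 1.33 ± 0.697 CPM in WT (SD, n = 5 and 3). Among 19 further genes of fatty acid synthesis and activation 13 were above 0. Elovl7, an elongase of long-chain fatty acids, had -0.50 (unadjusted edgeR p = 0.0374, exact two-sided permutation p = 0.0714) and Acacb, the mitochondrial acetyl-CoA carboxylase, 0.67. At an unadjusted edgeR p under 0.05, Elovl7 alone of these 19 was called, and 0 of the 8 liver X receptor genes (3.21% of all genes). Acacb and Nr1h3 were thus not called even at that level. Decr1, a reductase of fatty acid oxidation, had 0.42 (unadjusted edgeR p = 0.0388, exact two-sided permutation p = 0.0714), and the list of 12 tested oxidation genes had a median of -0.0091. Enzymes that use isoprenoids had a median log2 fold change of 0.08 over 11 genes, with Pggt1b, a subunit of the enzyme that attaches geranylgeranyl groups to proteins, at 0.18. Myc, the growth regulator, was at 308 ± 79.4 CPM in Furin KO and 245 ± 30.3 CPM in WT, and Mki67, a marker of dividing cells given for its role, at 1.53 ± 0.636 CPM in Furin KO and 1.81 ± 0.440 CPM in WT (SD, n = 5 and 3).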

How the data were processed

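RNA of 8 libraries was sequenced. Per the submitters' processing notes, FastQC, Trim Galore, STAR and DESeq2 1.24.0 were used with the build GRCm38. The authors deposited raw whole-number counts per Ensembl gene, and neither the counting program, its annotation nor its strand mode is stated. Sample titles matched the column names. Furin KO replicate 4 is placed among the WT columns of the table, and was taken as labelled. Symbols, exon lengths and overlaps came from GENCODE M21: 55480 of 55573 IDs matched.

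Genotype was tested in R 4.3.3 on the counts by the quasi-likelihood method of edgeR 4.0.16, with limma 3.58.1, after filterByExpr and TMM scaling, two-sided, without covariates, over all 8 libraries. The test was tested on simulated data, drawn without library sets, so that run does not cover the grouping of libraries seen here. Each member also had an exact permutation test of log2(CPM + 1) over 56 arrangements, counting absolute differences at least as large. CPM uses TMM-scaled library sizes, and SE is the fold change over the root of F. Branch medians and sums have no test. The members, lists and tests were chosen with earlier results of these data known. Members named in every library are the regulators, the 8 sterol and the 3 fatty acid members of lowest unadjusted p, and up to 3 genes of each further list follow the same order. Mbtps2 and Mki67 stand outside this rule and were named after their values were seen. The split of the enzymes at squalene is by pathway step. Alternatives were other size factors, filters and tools (limma-voom and DESeq2 1.42.0), a term for age, 8-week libraries alone and each library left out. A term for the library set was added after seeing the data. The sets came from the chi-square per degree of freedom between libraries (10.9 to 16.6 within sets, 16.7 to 38.3 between). Intervals reflect the depth of 11308220 to 21040431 counts per library and the spread between libraries.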

Additional observations from a re-analysis of the deposited data

Results flagged for a closer look

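In the 5 Furin KO libraries, 2 of 37 values (33 members, Furin, both branch sums and the total count) had 1 library far from the other 4 (Dixon's test, 95% level), and about 1.85 such values would arise by chance, or 1 in 20. Mvk, the mevalonate kinase, was at 8.81 CPM in Furin KO replicate 3, against 12.4 to 13.8 CPM in the other Furin KO libraries. Of the total counts, in units of 1000000, that of Furin KO replicate 5 was 11.3, and the other Furin KO libraries held 18.6 to 21.04.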

How the results depend on the processing

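0 members passed under any of the 17 alternatives, and the lowest adjusted p of a member was 0.698, for Srebf2 with the library set as a factor in edgeR. At an unadjusted p under 0.05, 5 members appeared in at least 1 setting: Scd2 in 12 of 18, Srebf2 in 7, Sqle in 3, Elovl6 in 2 and Mvd in 1. By setting these were 0 to 3 of 32 members, where 2.61% to 5.65% of all genes were called. The share of all genes called in at least 1 setting was not counted, so the 5 members cannot be set against it. Over all genes, 3 were higher and 1 lower in Furin KO. The counts were 25 and 13 without a filter beyond 1 count, 12 and 2 by DESeq2, 8 and 4 with the library set as a factor, and by limma-voom 2 were lower. Leaving out 1 library gave 2 to 4 higher and 1 lower. The sterol median of -0.07 ran from -0.14 to 0.00097 with 1 library left out, the last without WT replicate 2. The fatty acid median of 0.05 ran from -0.0018 (without WT replicate 3) to 0.081 (without Furin KO replicate 4), and was -0.024 in the 8-week libraries alone. Fads1, at -0.20, ran from -0.37 to 0.0038, the last without WT replicate 2. The other 12 named members and Furin kept their sign in all 17 alternatives, but 11 of the 13, all except Srebf2 and Scd2, moved by over 1.5 times with some library left out. The cause of these moves was not tested. No paired analysis was possible because the labels number the 8 libraries in 1 run, with no replicate number shared between genotypes. The library sets are a grouping by counts, not by labels, and with them as a factor the sterol median was -0.10. They still followed the labels: each set was a run of neighbouring library numbers, and 1 set held all libraries of 7 weeks and no others. For that set, age and set cannot be told apart.

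Few reads limit Idi1, whose interval spans -1.84 to 1.26, and Fdps, Acat2 and Hsd17b7, all under 10 CPM on average.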
